A study of Homo sapiens with 4 samples.

Results

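Expression of 10 genes that mark or set the epithelial or mesenchymal state was examined in LV-M100 cells after transfection with siRNAs against SNRNP40, which encodes a protein of the spliceosomal U5 particle. The genes were chosen by name, with earlier results of these data known. The mesenchymal side had 7 (VIM, CDH2, ZEB1, ZEB2, SNAI1, SNAI2 and TWIST1) and the epithelial side 3 (CDH1, EPCAM and ESRP1). Together the genes account for 10 of 23217 gene symbols and 24 of 44578 transcripts in the deposited table. LV-M100 is 1 clonal, low-variability subpopulation of the triple-negative breast cancer line MDA-MB-231. All 4 libraries came from these cells, transfected by lipofection and extracted 48 h later, with ribosomal RNA removed before library preparation. The siControl condition comprised the negative control siRNA NC1 (replicate 1) and the BLOCK-iT Fluorescent Oligo (replicate 2), and the siSNRNP40 condition comprised siSNRNP40 #1 and siSNRNP40 #2. The strands of these siRNAs as given with the samples are shown because they define the treatment.
siSNRNP40 #1: ggaauagacaaugauauc
siSNRNP40 #2: ggauuugaccgacugaua

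In an epithelial cell, E-cadherin holds neighbours together and keratins form the intermediate filaments. In the transition to a mesenchymal state, transcription factors of the ZEB, Snail and Twist families repress E-cadherin and other epithelial genes, while vimentin and often N-cadherin appear. ESRP1 and ESRP2 are splicing regulators that set the epithelial isoforms of many transcripts and are themselves repressed by ZEB1. MDA-MB-231 is widely used as a breast cancer line of mesenchymal type. The comparison asks how the levels of these genes differed when SNRNP40 was depleted.

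Each condition is represented by the authors' pooled FPKM value per transcript (fragments per kilobase of transcript, scaled to the number of mapped fragments), so no value has a replicate error and the depth is unknown. Tests were not run here, and the authors' own test results for each transcript were left unused. In such bulk samples, fewer cells that express a gene and less RNA per cell cannot be told apart. FPKM was summed over the transcripts of a gene, and differences are given as the log2 ratio of siSNRNP40 over siControl. For genes with a mean of at least 1 FPKM over both conditions, an absolute log2 ratio above 1 was taken as past the threshold. SNRNP40 itself had 40.4 FPKM in siControl and 6.12 FPKM in siSNRNP40, a log2 ratio of -2.72. The line's markers fitted the label in part. ESR1 and PGR, the hormone receptors, had 0.0199 and 0.0117 FPKM in siControl, and EGFR, CD44, CAV1 and MSN had 18.3, 116, 285 and 138 FPKM. ERBB2 was listed at 6.56 FPKM.

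VIM, ZEB1 and SNAI2 were the most abundant of the 7 mesenchymal genes, with log2 ratios between -0.22 and -0.03. Of the 10 genes, 5 had a mean of at least 1 FPKM (VIM, ZEB1, SNAI2, EPCAM and ZEB2), and 0 of these 5 were past the threshold. Among all 12334 genes at this level, 0.811% were higher by more than 1 on the log2 scale and 0.657% were lower. The median log2 ratio of the 4 mesenchymal genes at this level was -0.07, and over all 12334 genes it was 0.0034. The other 5 genes (CDH2, SNAI1, CDH1, ESRP1 and TWIST1) were below 1 FPKM in both conditions, where ratios vary widely. Of 3248 genes with a mean between 0.1 and 1 FPKM, 20.8% were past a log2 ratio of 1 in either direction, and of 1510 genes between 0.01 and 0.1 FPKM, 53.7% were.

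**Figure D1:**
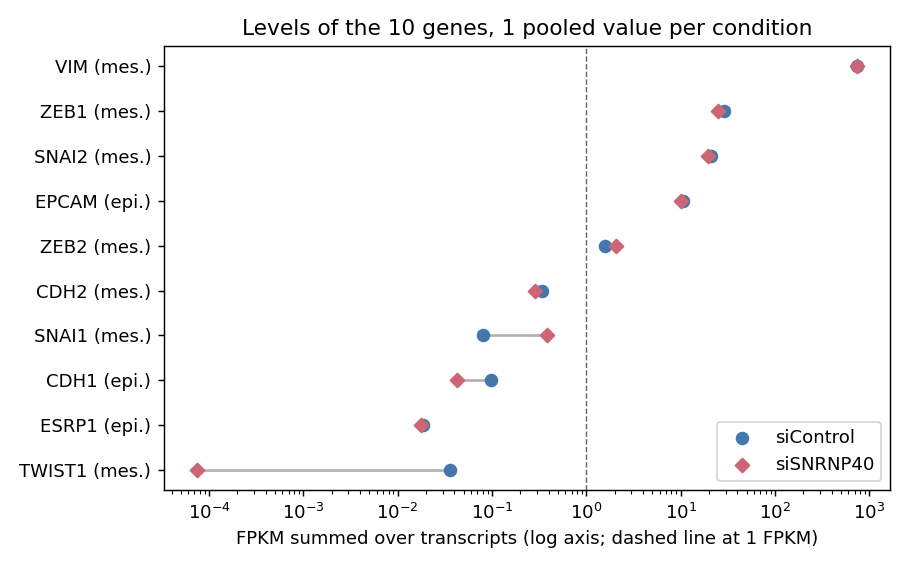
Summed FPKM (log axis) of the 10 genes in siControl (circles) and siSNRNP40 (diamonds), ordered by mean, 1 pooled value per condition without error; mes. and epi. give the side of each gene. VIM lies at 750 and 733 FPKM, ZEB1, SNAI2 and EPCAM between 10.0 and 29.1, ZEB2 near 2, and the other 5 genes to the left of the dashed line at 1 FPKM.

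VIM encodes vimentin, the intermediate filament protein of mesenchymal cells, and lies on chromosome 10 of hg19 from 17270258 to 17279592. Its level was 750 FPKM in siControl and 733 FPKM in siSNRNP40, rank 82 and rank 87 of the 23217 genes. The log2 ratio was -0.033. The antisense gene VIM-AS1, which overlaps the start of VIM, has no entry under that symbol among the deposited transcripts. The use of strand in counting is not given in the sources used here. CDH2, which encodes N-cadherin (chromosome 18, 25530930 to 25757445), had only 0.342 and 0.282 FPKM (log2 ratio -0.28). Vimentin mRNA stood high and N-cadherin mRNA low in both conditions.

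Among the transcription factors, ZEB1 and SNAI2 were the abundant ones. ZEB1, a zinc finger repressor of E-cadherin (chromosome 10, 31608101 to 31818742), had 29.1 FPKM in siControl and 25.0 FPKM in siSNRNP40, a log2 ratio of -0.22. SNAI2, which encodes the Snail family repressor Slug (chromosome 8, 49830239 to 49833999), had 21.0 and 19.4 FPKM (-0.11). ZEB2, the paralogue of ZEB1 (chromosome 2, 145141942 to 145278466), had 1.57 and 2.09 FPKM (0.42). ZEB1 and SNAI2 were thus slightly lower and ZEB2 slightly higher in siSNRNP40, and the excess of ZEB1 over ZEB2 was 18.6 times in siControl and 12.0 times in siSNRNP40. For 3268 genes with a mean of 20 to 100 FPKM, the level of ZEB1 and SNAI2, the log2 ratios from the 5th to the 95th percentile ran from -0.42 to 0.32. For 3775 genes with a mean of 1 to 5 FPKM, the level of ZEB2, they ran from -0.64 to 0.74. The ratios of ZEB1, SNAI2 and ZEB2 lay inside these ranges. Of the summed FPKM of the 5 factors, 51.8 in siControl and 46.9 in siSNRNP40, ZEB1 held 56.2% and 53.3%, SNAI2 40.5% and 41.4%, and ZEB2 3.02% and 4.45%.

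SNAI1, which encodes Snail (chromosome 20, 48599513 to 48605420), had 0.0805 FPKM in siControl and 0.386 FPKM in siSNRNP40. Its log2 ratio of 2.26 was above the 95th percentile of genes with a mean of 0.1 to 1 FPKM, which was 1.54, but was 0.36 with 1 FPKM added to both values. TWIST1, a basic helix-loop-helix factor (chromosome 7, 19155091 to 19157295), was listed at 0.0359 and 7.44e-05 FPKM, which is too near 0 in both conditions for a ratio to be read. In neither condition did SNAI1 or TWIST1 come near the level of ZEB1 or SNAI2.

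The 3 epithelial genes did not share 1 state. CDH1, which encodes E-cadherin (chromosome 16, 68771195 to 68869444), was listed at 0.0980 FPKM in siControl and 0.0423 FPKM in siSNRNP40 (log2 ratio -1.21). EPCAM, which encodes an epithelial cell adhesion molecule (chromosome 2, 47596287 to 47614167), had 10.6 and 10.0 FPKM (-0.078). EPCAM ranked 6198 of 23217 genes in siControl. ESRP1 (chromosome 8, 95653364 to 95719694) has 5 listed transcripts, whose sum was 0.0186 FPKM in siControl and 0.0178 FPKM in siSNRNP40. CDH1 and ESRP1 were therefore near 0 in both conditions while EPCAM was expressed. None of these 3 genes was listed higher in siSNRNP40, but CDH1 and ESRP1 were too low for a direction to be read. The ESRP1 sum came from different listed transcripts in each condition. ESRP2, the paralogue of ESRP1, was also low, at 0.697 and 0.648 FPKM. The ratio of summed mesenchymal to summed epithelial FPKM was 75.1 in siControl and 77.5 in siSNRNP40, and 4.88 and 4.69 when VIM was left out.

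**Figure D2:**
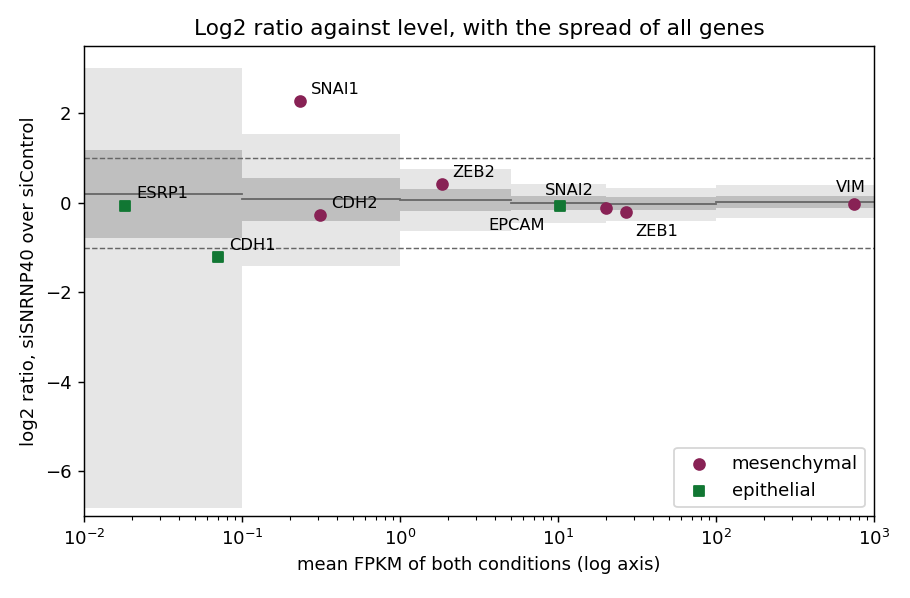
Log2 ratio of siSNRNP40 over siControl against mean FPKM (log axis) for 9 of the 10 genes, with the median (line), the interquartile range (dark band) and the 5th to 95th percentile (light band) of all genes in 6 classes of mean FPKM; dashed lines mark log2 ratios of -1 and 1, and TWIST1 (mean 0.0180 FPKM) is left out. SNAI1 lies above the light band, and the other 8 genes lie within it.

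ZEB1 and ZEB2 each have 6 listed transcripts, which share 1 locus per gene in the table and carry no isoform names. In ZEB1, the most abundant transcript, the third in table order, had 14.9 FPKM in siControl and 12.7 FPKM in siSNRNP40 (log2 ratio -0.23), or 51.3% and 50.7% of the gene. The fourth had 9.78 and 6.58 FPKM (-0.57) and went from 33.6% to 26.3% of the gene. The first had 0.291 and 1.56 FPKM (2.42), or 1.00% and 6.25%. The difference in summed ZEB1 was thus mostly in its 2 most abundant transcripts, while the first and the sixth were higher. The fifth and the sixth had log2 ratios of -0.029 and 0.45, and the second was listed at 0.261 FPKM and at 0. None of the 4 ZEB1 transcripts with a mean of at least 1 FPKM was past a log2 ratio of 1. Among 9639 transcripts at that level from genes with several transcripts, 16.9% were. In ZEB2, the fourth transcript held most of the signal, with 1.19 and 1.67 FPKM (0.49), and the sixth had 0.226 and 0.422 FPKM (0.90). The third ZEB2 transcript was at 0.151 FPKM in siControl and at 0 in siSNRNP40, and the first and the fifth were listed at 0 in both. ZEB1-AS1, the antisense neighbour of ZEB1, had 1.44 and 1.01 FPKM (-0.52), and ZEB2-AS1 was listed at 0 in both conditions.

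**Figure D3:**
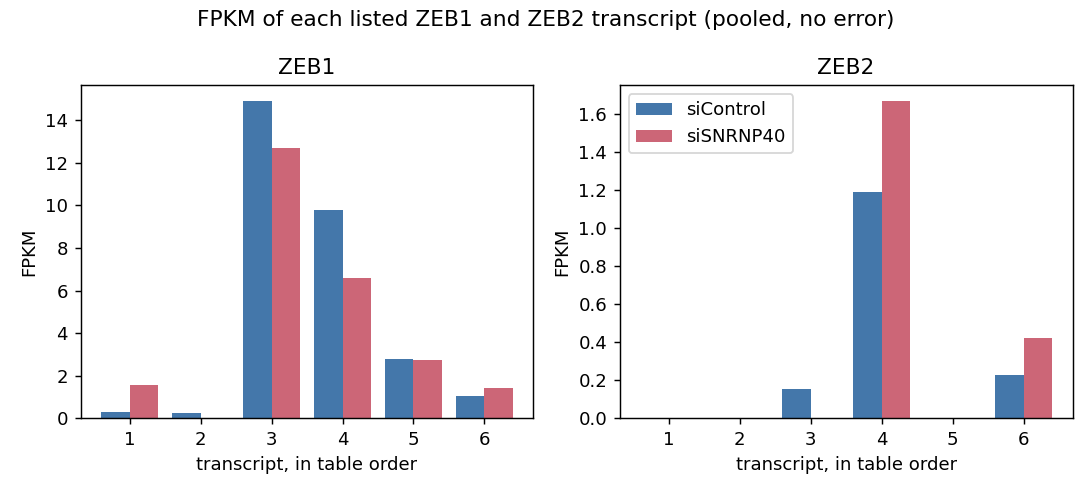
FPKM of the 6 listed transcripts of ZEB1 (left) and of ZEB2 (right) in siControl and siSNRNP40, in table order, 1 pooled value per condition and different vertical scales. The third and the fourth ZEB1 transcripts as well as the fourth ZEB2 transcript carry most of the signal, and in ZEB1 both of these are lower in siSNRNP40, whereas that of ZEB2 is higher.

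ZEB1 and ZEB2 also share a sequence feature that the other members lack or nearly lack. The microRNAs of the miR-200 family are known repressors of both mRNAs, and the family falls into groups by its seed (bases 2 to 8, in capitals), which differs at 1 base. The mature sequences (RefSeq, GRCh38.p14) are shown because both seeds have matches in the ZEB mRNAs.
miR-200b-3p: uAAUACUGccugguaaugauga
miR-200c-3p: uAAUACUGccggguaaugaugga
miR-429: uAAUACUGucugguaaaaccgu
miR-200a-3p: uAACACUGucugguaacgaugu
miR-141-3p: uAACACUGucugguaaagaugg

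The 3′ UTRs of the canonical transcripts (GENCODE on GRCh37, which has the coordinates of hg19) were searched on the transcript strand for the 7 bases that pair with a seed, CAGTATT for AAUACUG and CAGTGTT for AACACUG. The ZEB1 3′ UTR of 2540 bases held 6 and 3 matches, 9 in all, and the ZEB2 3′ UTR of 5370 bases held 5 and 4, again 9. ESRP1 held 2 and SNAI2 held 1, and CDH1, CDH2, EPCAM, SNAI1, TWIST1 and VIM held 0. Of 19403 annotated 3′ UTRs, 28.2% had at least 1 match to either seed and 8 had 9 or more. Among the 2408 of 2000 to 3000 bases, ZEB1 was the only 1 with 9 or more, and among the 471 of 5000 to 6000 bases ZEB2 was the only 1. The first match to each seed in each gene is shown with 8 bases before it and 1 after, the match in capitals.
ZEB1 seed AAUACUG, chr10:31816553-31816568, plus strand: tatcttatCAGTATTa
ZEB1 seed AACACUG, chr10:31816966-31816981, plus strand: atcagaatCAGTGTTt
ZEB2 seed AAUACUG, chr2:145146619-145146634, minus strand: ccatacatCAGTATTt
ZEB2 seed AACACUG, chr2:145146803-145146818, minus strand: attttgtaCAGTGTTa

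The hairpin genes MIR200A, MIR200B, MIR200C, MIR141 and MIR429 were all listed at 0 FPKM in both conditions. A row for a hairpin in a library of long RNA does not measure the mature microRNA, so the level of the family in these cells is not known from the table. Whether the matches bear on the log2 ratios of ZEB1 and ZEB2, which lay inside the ranges given above for their levels, was not tested.

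Genes that work beside the 10 were followed on lists of other transition factors, corepressors, mesenchymal markers, catenins, junction genes, epithelial surface genes, keratins, epithelial transcription factors, splicing regulators and genes with ESRP-regulated exons. Of 103 distinct genes on these lists at or above 1 FPKM, 2 were past a log2 ratio of 1, or 1.94%, near the 1.47% of all 12334 genes. A log2 ratio below 0 was found for 49.5% of all 12334 genes and for 62.1% of the 103 list genes. These are the shares to set beside the counts of signs below. KLF4, a zinc finger transcription factor of epithelial barriers, had 6.78 FPKM in siControl and 19.7 FPKM in siSNRNP40 (1.54). FGFR2, a fibroblast growth factor receptor with ESRP-dependent exons, had 1.73 and 0.519 FPKM (-1.74), all of it in 1 of 11 listed transcripts. With 1 FPKM added to both values FGFR2 was no longer past the threshold.

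Mesenchymal structural and surface markers were split. Of 20 genes on this list 14 had a mean of at least 1 FPKM, and 6 of these were lower by more than 0.5 on the log2 scale, or 42.9%, against 5.06% of all 12334 genes. None was higher by more than 0.5, against 5.24% of all genes. At the main threshold, a log2 ratio of 1, the list had 0 genes in either direction. The count below -0.5 was added after the values were seen, and its share was the highest of the 10 lists. All 10 lists were themselves chosen with earlier results of these data known. FN1, which encodes the matrix protein fibronectin, had 34.6 FPKM in siControl and 21.6 FPKM in siSNRNP40 (log2 ratio -0.68). TGFBI, a secreted matrix protein induced by TGF-beta, had 48.2 and 31.3 FPKM (-0.62). NT5E, the surface nucleotidase CD73, had 277 and 182 FPKM (-0.60), and CAV1, the caveolar coat protein, had 285 and 198 FPKM (-0.53). The remaining 2, CDH4 (R-cadherin, -0.57) and TAGLN (transgelin, -0.52), were expressed at a mean of 1.88 and 2.64 FPKM. These 2 lay above the 5th percentile of genes with a mean of 1 to 5 FPKM, which was -0.64. FN1 and TGFBI lay below that of genes at 20 to 100 FPKM (-0.42), and NT5E and CAV1 below that of genes at 100 FPKM or more (-0.34). The most abundant markers differed less, as LGALS1 (galectin-1) had 1058 and 1018 FPKM (-0.055) and S100A4 had 577 and 600 FPKM (0.056). CD44, the hyaluronan receptor, had 116 and 141 FPKM (0.29), the highest ratio of the 14. Whereas FN1, TGFBI, NT5E and CAV1 were lower, VIM, LGALS1 and S100A4 kept within 0.06 of a log2 ratio of 0, and the median of the 14 was -0.095. How far these differences exceed the spread between libraries cannot be told from pooled values alone, and the authors' test results were not used.

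Epithelial cell adhesion genes were partly expressed in these cells despite the near absence of CDH1. Among 24 listed junction genes, 16 had a mean of at least 1 FPKM, 9 with a log2 ratio above 0 and 7 below, with a median of 0.19. This median depended on the lower genes, being -0.10 for those with a mean of at least 5 FPKM. MARVELD3, a tight junction protein, had 3.27 and 4.86 FPKM (0.57), and PKP3, a desmosomal plakophilin, had 3.10 and 4.58 FPKM (0.57). DSG2 (desmoglein-2) had 24.7 and 18.3 FPKM (-0.43), and INADL, a polarity scaffold, was lowest at -0.45. The simple keratins KRT19, KRT18 and KRT8 were abundant, at 196, 158 and 136 FPKM in siControl, with log2 ratios of -0.18, -0.27 and -0.20. KRT81, at 17.6 and 10.8 FPKM, was the only 1 of 7 keratins lower by more than 0.5 (-0.71), and KRT15 was the only 1 above 0 (0.17). Hence KRT8, KRT18 and KRT19 stood at high FPKM beside vimentin in both conditions. Of 12 listed keratins only these 7 had a mean of at least 1 FPKM, and KRT5, KRT6A, KRT6B, KRT14 and KRT17 were near 0 in both.

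Of 15 epithelial surface and protease genes only 6 had a mean of at least 1 FPKM, among them SPINT2 (70.3 and 62.7 FPKM; log2 ratio -0.16), a protease inhibitor. ERBB3, a receptor kinase, had 0.948 and 1.40 FPKM (0.57), and PROM2 was lowest at -0.40. Of 16 epithelial transcription factors 5 had a mean of at least 1 FPKM, while GRHL2 was listed at 0.00568 and 0.0258 FPKM and OVOL2 at 0 in both conditions. EHF was the most abundant, at 47.3 and 47.2 FPKM (-0.0026), and KLF5 had 5.11 and 4.20 FPKM (-0.28).

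Of 9 catenins and related proteins, which link cadherins to actin, 6 were at or above 1 FPKM, while CDH1 and CDH2 were below it. CTNNAL1, an alpha-catenin-like protein, had 316 and 288 FPKM (-0.13), CTNNA1 164 and 134 FPKM (-0.29) and CTNNB1, beta-catenin, 154 and 124 FPKM (-0.31). JUP, plakoglobin, had 1.25 and 1.64 FPKM (0.39), the highest ratio of the 6 at or above 1 FPKM. Of the 13 corepressors that act with ZEB and Snail factors, all were at or above 1 FPKM, 10 had a log2 ratio below 0, beside 49.5% of all genes, and the median was -0.04. RCOR1 (CoREST) was lowest, at 9.18 and 6.23 FPKM (-0.56). HDAC1 had 63.0 and 62.7 FPKM (-0.0088), and AJUBA had 53.8 and 58.3 FPKM (0.12). Among 7 of 15 other transition factors at or above 1 FPKM, ETS1 had 26.9 and 35.4 FPKM (0.39), FOSL1 22.8 and 28.5 FPKM (0.32) and SOX9 8.05 and 6.20 FPKM (-0.38), with a median of 0.12.

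**Figure D4:**
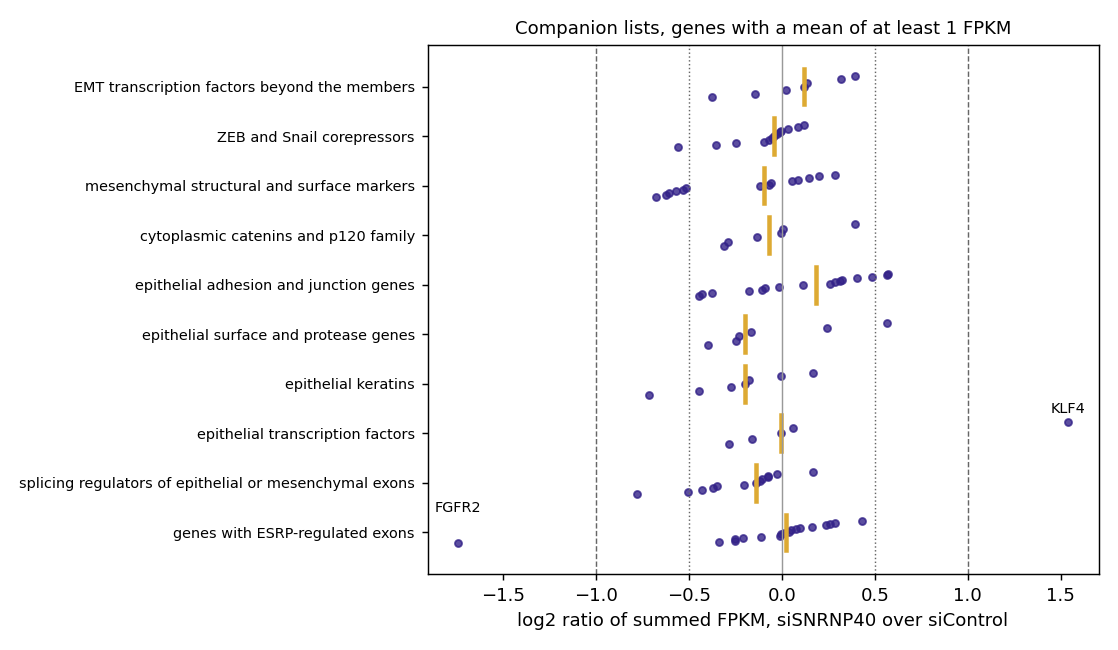
Log2 ratio of siSNRNP40 over siControl for each gene with a mean of at least 1 FPKM on 10 lists (points) with the median of each list (bars); dotted lines mark -0.5 and 0.5, dashed lines -1 and 1. KLF4 and FGFR2 lie beyond the dashed lines, and 6 mesenchymal structural and surface markers lie left of -0.5.

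Of 13 splicing regulators of epithelial or mesenchymal exons at or above 1 FPKM, 12 had a log2 ratio below 0, beside 49.5% of all genes, with a median of -0.14. MBNL2, a muscleblind protein, had 16.0 and 9.35 FPKM (-0.78), and RBM47, which favours epithelial splicing, had 3.83 and 2.70 FPKM (-0.51). MBNL1 had 66.1 and 52.0 FPKM (-0.35) and SRSF1, the most abundant, 107 and 102 FPKM (-0.072). RBFOX2, which favours mesenchymal exons, was the only 1 above 0, with 24.8 and 27.8 FPKM (0.17).

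Genes whose exons respond to ESRP proteins are described by gene and by transcript. Of 18 such genes at or above 1 FPKM, FGFR2 alone was past a log2 ratio of 1, and the median of their summed FPKM was 0.025. SLK and CD44, the most abundant, had ratios of -0.21 and 0.29, and ENAH was highest at 0.43. Of 43 transcripts at or above 1 FPKM from 16 of these genes with several transcripts, 10 were past a log2 ratio of 1, which is 23.3% beside the 16.9% of all such transcripts, and 1 of the 10 was the single expressed transcript of FGFR2. CTNND1 (p120-catenin), at 34.3 FPKM in both conditions, had its seventh listed transcript at 5.61 and 2.52 FPKM (-1.15) and its eighth at 1.09 and 3.29 FPKM (1.60). Transcript 24 of CTNND1, at 2.30 FPKM in siControl and 0 in siSNRNP40, has no ratio and is not among the 43. In FGFR1, at 24.6 and 24.8 FPKM, the fourth transcript had 2.34 and 5.26 FPKM (1.17) and the eighth 2.09 and 4.82 FPKM (1.21). In MAP3K7 the second of 4 transcripts had 8.56 and 3.17 FPKM (-1.44), going from 53.6% to 23.6% of the gene. For CD44, 0 of 7 transcripts were past the threshold, the nearest at -0.99. These transcripts have no isoform names in the table, so whether any contains an ESRP-regulated exon is not known.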

How the data were processed

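RNA-sequencing of 4 libraries from LV-M100 cells was examined as the authors' table of transcripts. Adapter removal (cutadapt 1.2.1), alignment to hg19 (TopHat2 2.0.8), transcript assembly and merging (Cufflinks) and quantification (Cuffdiff 2.0.2) were done by the authors, per the methods and the submitters' processing notes. Their deposited FPKM is 1 estimate per transcript and condition, pooled over 2 libraries, so depth and replicate spread are unknown. The isoform model divides fragments between overlapping transcripts, and FPKM was therefore summed per gene symbol. Columns holding the authors' comparison (fold change, test statistic, p, q and status) were left unused. Locus starts were converted to count from 1.

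No test was run. Ratios carry no pseudocount, and counts and medians use genes with a mean of at least 1 FPKM and a value above 0 in both conditions. Genes named are the 10 members, SNRNP40, and from each of 10 lists (159 entries) the genes past a log2 ratio of 1, the largest difference in each direction and the 2 most abundant; the further genes named, among them those past 0.5, were added after their values were seen, and some genes that meet the rule are not reported here. Members and lists were chosen with earlier results of these data known. Summing and calling were tested on simulated data. Sequences came from RefSeq, the sample labels and GENCODE on GRCh37. Calculations used Python 3.11.15, numpy 2.4.6 and pandas 2.3.3.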

Additional observations from a re-analysis of the deposited data

How the results depend on the processing

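No paired analysis was possible because each condition is deposited as 1 pooled value, and for the same reason no replicate could be left out. Of 272 values under alternatives, 238 were the same as reported and 34 moved (log2 values by at least 0.1, counts by more than 1.5 times). No ratio of a member changed sign, but 2 list medians did, that of junction genes at a mean of at least 5 FPKM and that of epithelial transcription factors (-0.0026 as reported) at that mean, without a filter and with upper-quartile scaling (0.022). The causes were not tested. With 1 FPKM added, the log2 ratio was -0.066 for CDH2, 0.27 for ZEB2, 0.36 for SNAI1, -0.051 for TWIST1, -0.075 for CDH1 and -2.54 for SNRNP40, and with 0.1 FPKM added 1.43 for SNAI1, -0.44 for TWIST1 and -0.48 for CDH1. The number of members past a log2 ratio of 1 was 3 without a filter (SNAI1, TWIST1 and CDH1), against 0. The mesenchymal to epithelial ratio without VIM was 4.88 in siControl and 4.69 in siSNRNP40. Without a filter, the number of list genes past 1 was 1 for transition factors, 5 for junction genes, 1 for surface genes, 2 for keratins, 6 for epithelial transcription factors and 2 for ESRP-regulated genes; the last was 0 with 1 FPKM added and 0 at a mean of at least 5 FPKM. At a threshold of 0.5 it was 1 for corepressors, 6 for mesenchymal markers, 2 for junction genes, 1 for surface genes, 1 for keratins and 2 for splicing regulators. List medians without a filter were 0.31 for junction genes, -0.30 for surface genes and 0.39 for epithelial transcription factors, and at a mean of at least 5 FPKM -0.10 for junction genes and 0.77 for epithelial transcription factors. Only EHF (-0.0026) and KLF4 (1.54) entered the last of these medians. With the most expressed transcript of each gene, the median was -0.21 for catenins and -0.28 for splicing regulators, and 1 splicing regulator was past 1. The count of mesenchymal markers lower by more than 0.5 was added after the data were seen, as were its 8 settings. It was 6 as reported and 4 to 7 under those settings. Upper-quartile scaling shifted all ratios by 0.024, and the other scalings by less.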
